A study of Homo sapiens with 8 samples.

Results

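The genes examined here were RET, its co-receptors GFRA1, GFRA2 and GFRA3, the ligands GDNF, ARTN and NRTN, and ALK, another receptor tyrosine kinase of the sympathetic lineage. They were chosen by symbol, and each symbol names 1 entry of the table, so there were 8 genes of 47591. Of these, 7 reached a mean level of 10 normalized counts or more and were tested among 18947 genes, while GDNF was listed at 0 in every library.

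The cells were SH-SY5Y, an established human neuroblastoma line that resembles sympathetic neuroblasts and carries an activating mutation of ALK. The study compared the G2 line, edited by CRISPR/Cas9 with a guide against the splicing factor PRPF40B (3 libraries), the SCR line, which received the same machinery with a scrambled guide (3 libraries), and unedited WT cells from ATCC (2 libraries). According to the study's methods, edited cells were selected in puromycin and taken from individual colonies after limiting dilution, and the SCR and G2 lines were then kept in puromycin, which is not stated for WT. No allele of PRPF40B is given in the labels, and the edit, the colony and the culture history of G2 cannot be told apart in these libraries. The libraries of a line are labelled as biological replicates, and nothing more is said about how they were separated, so the p-values measure the spread between these samples.

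RET is the signalling receptor of the GDNF family of neurotrophic factors. The ligands do not bind RET alone. Each first binds a co-receptor anchored in the membrane by a lipid, and the pair then brings RET molecules together. GDNF prefers GFRA1, neurturin (NRTN) prefers GFRA2 and artemin (ARTN) prefers GFRA3, and in sympathetic neurons these pairs guide migration, axon growth and survival. ALK is activated by the small ligands ALKAL1 and ALKAL2, and it is the receptor most often mutated in neuroblastoma. Both receptors feed the RAS-ERK and PI3K pathways through a shared set of adaptors.

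In G2 cells the RNA of both receptors was lower than in either control line, and the co-receptors changed in opposite directions. RET, ALK and GFRA3 fell, GFRA1 and GFRA2 rose, and the ligands NRTN and ARTN fell. All 7 tested genes were called in G2/SCR, with 2 higher and 5 lower. A call needed a 1.5-fold change with p no larger than 0.05 before adjustment, and 26.9% of all genes tested met this rule in G2/SCR (15.1% higher and 11.8% lower). Of those calls 56.2% were higher, and 47.5% with libraries scaled to the same total, so the direction held by most calls depends on the scaling. In G2/WT the same 2 genes were called higher and the same 5 lower, against 29.9% of all genes called (17.7% higher and 12.2% lower). In SCR/WT only GFRA2 (higher) and NRTN (lower) were called, against 16.3% of all genes (10.7% higher and 5.63% lower). With adjusted p in the rule the counts of these 7 genes stayed as they were, and the shares of all genes were 25%, 28.2% and 13.8%. GFRA2 and NRTN were called in all 3 comparisons, as were 4.28% of all genes. Both G2 comparisons use the same 3 G2 libraries. Genes called lower in both made up 6.43% of all genes tested, and genes called higher in both 11.3%. For all 7 tested genes no G2 library fell within the span of the 5 controls, which held for 42.5% of all genes. Over the 7 genes the median change on the log2 scale was -0.95 against SCR and -1.22 against WT, where the medians of all genes tested were -0.01 and 0. In a bulk library, fewer cells that express a gene and less of its RNA per cell cannot be told apart.

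**Figure D1:**
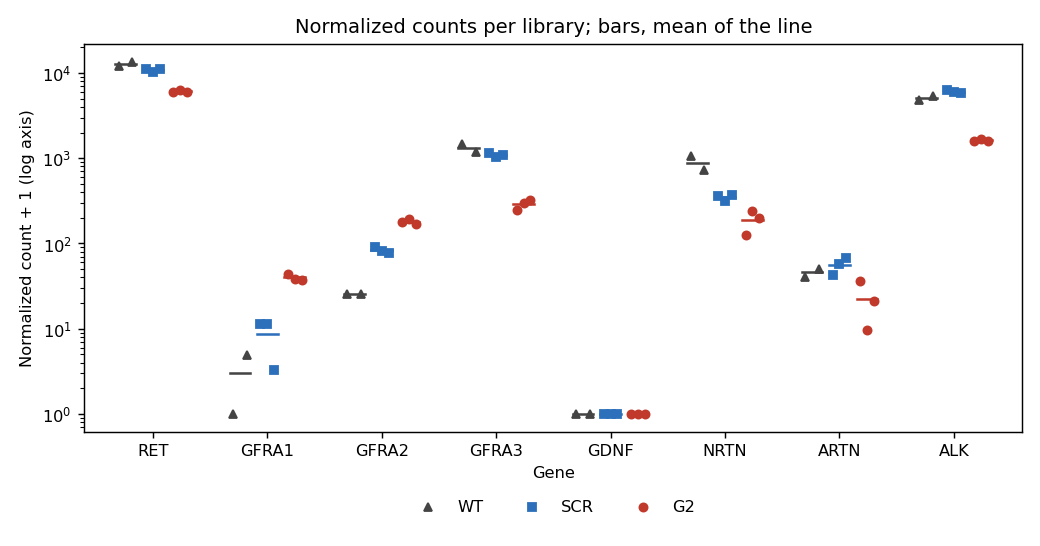
Normalized counts + 1 (log axis) of the 8 genes in each library of WT (triangles), SCR (squares) and G2 (circles), with a bar at the mean of each line. The G2 points of RET, GFRA3, NRTN, ARTN and ALK lie below all control points, those of GFRA1 and GFRA2 lie above them, and GDNF is at 0 throughout.

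The edited gene was checked first. PRPF40B had 840.2, 841 and 918 normalized counts in the G2 libraries, between 1669 and 1686 in SCR, and 1972 and 1668 in WT. On the log2 scale G2 differed from SCR by -0.95 and from WT by -1.07, so its RNA was lowered but not lost. The recovered totals before normalization ran from 59804395 to 81080747 counts per library. Small counts were mostly multiples of 3 (71.3% to 75.6% of them per library), so a fragment was taken as about 3 counts and a line was regarded as at the floor when no library exceeded 9 counts. Such floors take no account of anything but counting error. Ribosomal RNA took up 4.96% and 4.75% of the normalized counts in WT and 0.384% to 0.587% in the other libraries.

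The sequences upstream of 4 of the genes are shown because RET, ALK and GFRA3 fell together in G2, while GFRA1 rose. Each is the 250 bases before the RefSeq start (GRCh38.p14) that coincides with the end of the gene in the table, written 5' to 3' on the strand of the gene. Capitals mark GGGCGG, the core of a GC box, or its reverse complement CCGCCC, and adjoining matches may share bases. The RET window is chr10:43076819-43077068 on the plus strand. The ALK window is chr2:29921587-29921836, the GFRA3 window is chr5:138274622-138274871 and the GFRA1 window, at 1 of its 4 RefSeq starts, is chr10:116274706-116274955, all on the minus strand.
RET: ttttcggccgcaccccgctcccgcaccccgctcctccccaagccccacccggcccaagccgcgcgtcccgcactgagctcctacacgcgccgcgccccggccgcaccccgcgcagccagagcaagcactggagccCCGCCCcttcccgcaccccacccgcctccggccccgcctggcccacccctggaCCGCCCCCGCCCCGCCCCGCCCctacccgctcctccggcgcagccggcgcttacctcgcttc
ALK: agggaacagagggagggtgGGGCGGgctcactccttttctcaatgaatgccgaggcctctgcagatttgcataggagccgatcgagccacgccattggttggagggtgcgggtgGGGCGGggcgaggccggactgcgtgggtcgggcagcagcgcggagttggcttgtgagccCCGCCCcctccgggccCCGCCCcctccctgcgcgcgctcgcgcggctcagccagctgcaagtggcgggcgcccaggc
GFRA3: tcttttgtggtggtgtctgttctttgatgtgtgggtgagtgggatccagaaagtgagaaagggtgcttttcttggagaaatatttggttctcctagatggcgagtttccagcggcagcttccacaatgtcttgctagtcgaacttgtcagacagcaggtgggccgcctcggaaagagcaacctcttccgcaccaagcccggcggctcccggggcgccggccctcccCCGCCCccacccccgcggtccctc
GFRA1: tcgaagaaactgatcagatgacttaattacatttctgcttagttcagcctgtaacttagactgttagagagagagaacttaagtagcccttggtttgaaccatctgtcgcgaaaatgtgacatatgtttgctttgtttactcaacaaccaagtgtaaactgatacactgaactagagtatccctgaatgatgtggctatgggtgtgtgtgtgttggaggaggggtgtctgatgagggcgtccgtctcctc

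The GGGCGG motif, searched on both strands, occurs 5 times in the RET window, 4 times in the ALK window, once in the GFRA3 window and not in the GFRA1 window. Of 35116 promoter windows of the same length, 42.6% hold it. The GC content is 79.6% for RET, 71.6% for ALK, 59.2% for GFRA3 and 43.2% for GFRA1, against a median of 58.0% over all windows. The E-box CANNTG, the kind of site read by HAND2, occurs 4 times in the GFRA1 window, 2 times in that of ALK, once in that of GFRA3 and not in that of RET, and 61.8% of all windows hold it. The homeobox core TAATTA occurs once in the GFRA1 window and in none of the other 3, and 4.35% of all windows hold it. These are matches of letters and not binding sites, and none of them was measured in the cells. RefSeq windows were found for 7 of the 8 genes, the exception being GFRA2. Of those not shown, NRTN had 5 matches of GGGCGG and a GC content of 80.4%. ARTN, whose window begins at a start 481 bases from the end of its entry, had 1 match and 70.4%. GDNF had 0 and 78.0%. CANNTG occurs once each for NRTN and ARTN and not for GDNF, and TAATTA in none of them. A link between these matches and the changes in RNA was not tested.

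RET (GSHG0004024, hg38 chromosome 10 from 43077069 to 43130351) was the most abundant of the 8 genes per length of exon. The G2 libraries had 6009.6, 6276 and 6059 normalized counts, the SCR libraries 11138, 10321 and 11159.6, and the WT libraries 12097 and 13603. All G2 libraries lay below all control libraries, and the spread within a line was small beside the gap. Against SCR the log2 fold change was -0.83 (95% interval -0.96 to -0.70, adjusted p = 2.2e-07, limma with Benjamini-Hochberg adjustment). Against WT it was -1.07 (-1.21 to -0.93, adjusted p = 6.9e-08, limma). SCR lay below WT by less than the fold threshold, with a log2 fold change of -0.24 in SCR/WT (-0.38 to -0.10) that turned to 0.04 with libraries scaled to the same total. As ratios of the means, RET was 1.78 times higher in SCR and 2.1 times higher in WT than in G2.

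The co-receptor GFRA3 (GSHG0035797, chromosome 5 from 138252379 to 138274621), the receptor for artemin, was the co-receptor that fell. It had 246, 296 and 319 normalized counts in G2, 1160.4, 1029.5 and 1091 in SCR, and 1454 and 1192 in WT. The highest G2 library was far below the lowest control library. In G2/SCR the log2 fold change was -1.93 (-2.18 to -1.69, adjusted p = 3.8e-08, limma), and in G2/WT it was -2.20 (-2.48 to -1.93, adjusted p = 3.7e-08, limma). The SCR and WT levels did not differ by the call rule, with a log2 fold change of -0.27 and an interval from -0.54 to 0.00.

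GFRA2 (GSHG0042173, chromosome 8 from 21690398 to 21788875), the receptor for neurturin, went the other way. It had 179.7, 192 and 169 normalized counts in G2, 90.8, 81.6 and 75.6 in SCR, and 24.8 in each WT library. The 3 lines did not overlap, and the order was WT, SCR, G2 from low to high. GFRA2 rose by 1.12 on the log2 scale in G2/SCR (0.74 to 1.49, adjusted p = 0.0002, limma) and by 2.81 in G2/WT (2.38 to 3.23, adjusted p = 1.9e-07, limma). It also rose by 1.69 in SCR/WT (1.27 to 2.11, adjusted p = 5.2e-05, limma), so SCR was above WT as well. Genes called in all 3 comparisons that rose from WT to SCR and again to G2 made up 2.44% of the genes tested.

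GFRA1 (GSHG0005487, chromosome 10 from 116056925 to 116274705), the receptor for GDNF, had low counts in every line. It had 43.3, 37.2 and 36.5 normalized counts in G2, 10.2, 10.3 and 2.27 in SCR, and 0 and 3.97 in WT. Before normalization these were 46, 34 and 34 counts in G2, 10, 11 and 3 in SCR and 0 and 4 in WT, so the control values rest on few fragments. The G2 libraries lay above all others, while SCR and WT overlapped. The log2 fold change in G2/SCR was 2.42, with a wide interval (0.79 to 4.05, adjusted p = 0.017, limma). Without SCR replicate 3, the lowest control of that line, it was 1.82 with an adjusted p of 0.068 (limma), and the call by unadjusted p stayed. WT was at the floor, and against the floor of 9 counts in a library GFRA1 was at least 3.88-fold higher in G2 than in WT. In SCR/WT it was not called, but leaving out SCR replicate 3 or WT replicate 2 brought a call.

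Expressed per kilobase of exon, GFRA3 was the leading co-receptor in every line. Its mean level was 144 ± 18.9 normalized counts per kb in the 3 G2 libraries (mean ± SD), 550.0 ± 32.9 in the 3 SCR libraries and 666 ± 93.0 in the 2 WT libraries. The mean level of GFRA2 on this scale was 31.2 in G2, 14.3 in SCR and 4.30 in WT, and that of GFRA1 was 3.66, 0.713 and 0.186. The order GFRA3, GFRA2, GFRA1 was therefore the same in all 3 lines. The ratio of GFRA3 to GFRA2 per kb was 3.97, 4.48 and 5.50 in the G2 libraries. It was 37.1, 36.6 and 41.9 in SCR, and 170 and 140 in WT. RET itself stood at 682 normalized counts per kb in G2, 1212 in SCR and 1432 in WT, above every co-receptor in each line. Lengths are those of all exons of a gene in GENCODE 44, so levels between genes are approximate.

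**Figure D2:**
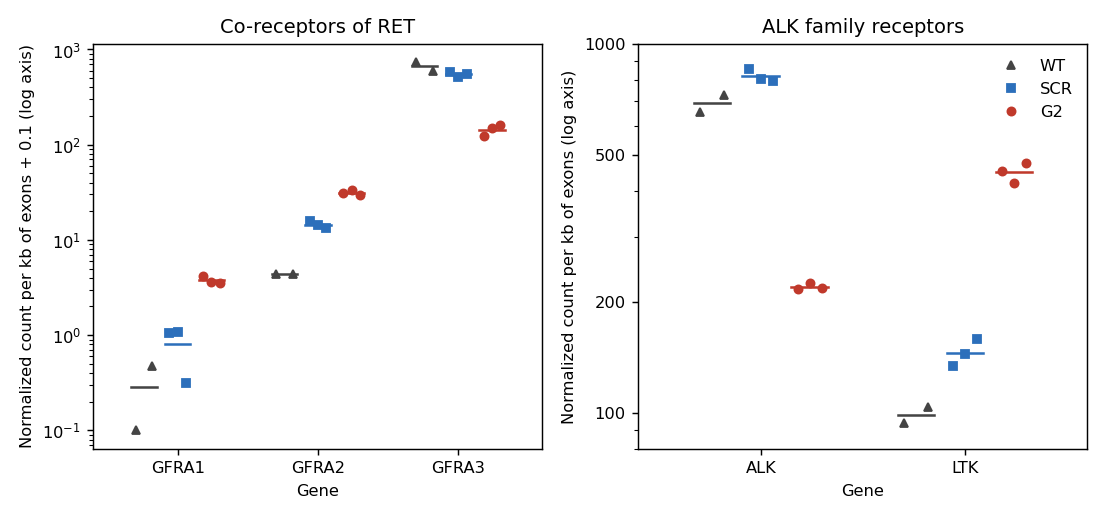
Normalized counts per kb of exon (log axes) of the RET co-receptors (left, with 0.1 added) and of ALK and LTK (right), for each library of WT (triangles), SCR (squares) and G2 (circles), with bars at the means. GFRA3 falls and GFRA1 and GFRA2 rise in G2, and ALK and LTK change places, with ALK above LTK in the controls and below it in G2.

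Among the ligands, NRTN (GSHG0021066, chromosome 19 from 5805067 to 5828324) fell in steps over the lines. It had 1050.4 and 719.8 normalized counts in WT, 359, 318 and 369.6 in SCR, and 123, 239 and 199 in G2. The lines did not overlap, although both WT and G2 had libraries well apart from each other. On the log2 scale NRTN changed by -0.95 in G2/SCR (-1.41 to -0.48, adjusted p = 0.0029, limma), -2.26 in G2/WT (-2.78 to -1.74, adjusted p = 7.8e-06, limma) and -1.32 in SCR/WT (-1.84 to -0.80, adjusted p = 0.0012, limma). Genes called in all 3 comparisons that fell from WT to SCR and again to G2 were 0.369% of the genes tested. NRTN and its preferred co-receptor GFRA2 thus moved in opposite directions at both steps.

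ARTN (GSHG0000508, chromosome 1 from 43933320 to 43937240) was near the lower end of the levels tested. It had 34.8, 8.76 and 20.4 normalized counts in G2, 41.8, 56.3 and 67.3 in SCR, and 39.7 and 49.6 in WT. The G2 libraries were below all controls, but G2 replicate 1 came close to the lowest of them. Against SCR its log2 fold change was -1.49 (-2.43 to -0.56, adjusted p = 0.012, limma), and it was -0.99 without G2 replicate 2. In G2/WT it was -1.22 (-2.26 to -0.17, adjusted p = 0.05, limma). That call was lost without G2 replicate 2 (-0.71) and without WT replicate 2 (-1.06). SCR/WT gave 0.28 with an interval from -0.76 to 1.32. ARTN fell together with its preferred co-receptor GFRA3.

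GDNF (GSHG0035320, chromosome 5 from 37812677 to 37840041) had no count in any of the 8 libraries. GDNF-AS1, whose entry overlaps it, was listed at 0 as well. Each library total, taken as 19934798 to 27026916 fragments, allows up to 3 fragments behind a count of 0.

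ALK (GSHG0025190, chromosome 2 from 29192774 to 29921586) had 1599.5, 1663 and 1611 normalized counts in G2, 6329, 5925 and 5847 in SCR, and 4835 and 5357 in WT. The G2 libraries agreed closely with each other and lay far below the controls. Against SCR the log2 fold change was -1.89 (-2.02 to -1.76, adjusted p = 2.3e-10, limma), and against WT it was -1.65 (-1.79 to -1.50, adjusted p = 2.1e-09, limma). SCR was slightly above WT, with a log2 fold change of 0.24 (0.10 to 0.39), which is under the fold threshold. The means were 3.71 times higher in SCR and 3.14 times higher in WT than in G2. The ratio of RET to ALK per kb was 3.09, 3.10 and 3.09 in G2, against 1.43 to 1.57 in SCR and 2.06 and 2.09 in WT.

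**Figure D3:**
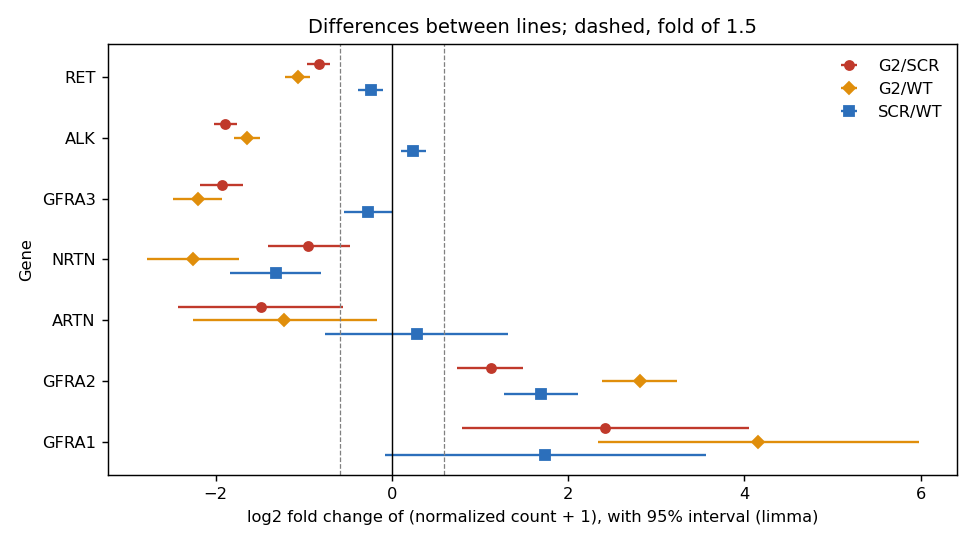
log2 fold changes of the 7 tested genes on the scale of normalized count + 1, with 95% intervals from limma, for G2/SCR (circles), G2/WT (diamonds) and SCR/WT (squares); dashed lines mark a fold of 1.5. RET, ALK and GFRA3 have short intervals well to the left in both G2 comparisons, the SCR/WT points of NRTN and GFRA2 also pass the dashed lines, and the GFRA1 points against WT depend on the pseudocount because WT is at the floor.

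Each gene was also compared between the 3 G2 libraries and the 5 control libraries taken as 1 set, by an exact two-sided permutation test of the mean log2 value over 56 groupings. The p was 0.018 for RET, GFRA3, ARTN and ALK, the smallest that 3 libraries against 5 allow. It was 0.036 for NRTN and GFRA1 and 0.054 for GFRA2, whose SCR and WT libraries lay far apart.

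Several of the genes share their position with other entries. RET, NRTN and ALK each overlap a weak entry without a symbol (means of 5.64, 2.34 and 1.59 normalized counts), ALK also overlaps LOC105374389 (mean of 10.2) and GFRA1 holds SNORD158 (0). All of these entries are far below the genes they overlap, and the strand setting of the counting is not given in the sources used here. The genes around each member were described by the 5 tested genes on each side. Of all genes tested, 15.1% were called higher and 11.8% lower in G2/SCR, and 17.7% and 12.2% in G2/WT. Around GFRA3 none of the 10 neighbours was called in G2/SCR or G2/WT. Around ALK 2 of 10 were called lower in each of these comparisons, with medians of -0.17 and -0.24. Around RET 1 was called higher and 3 lower in G2/SCR and none in G2/WT, with medians of -0.18 and -0.19. Around NRTN 1 of 10 was called lower in G2/SCR and 6 of 10 in G2/WT, with medians of -0.35 and -0.77, so in G2/WT its surroundings were lower too. Around GFRA2 2 of 10 were called lower in each G2 comparison. Around GFRA1 2 of 10 were called lower in G2/SCR, and 2 higher and 1 lower in G2/WT. Around ARTN 2 were called higher and 1 lower in each, and around GDNF the genes called were all higher, 2 in G2/SCR against 4 in G2/WT.

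None of the 4 tested genes among the other GDNF family members was called in G2/SCR by limma, edgeR or DESeq2, and 1 of them, SDC3, passed an unadjusted p of 0.05 without reaching the fold. PSPN (persephin) had between 115 and 186 normalized counts over all libraries and was not called in any comparison. GFRA4, its co-receptor, and GFRAL, the receptor for GDF15, were listed at 0 in every library. GDF15, a stress-induced ligand that signals through GFRAL and RET, stood at -0.02 in G2/SCR (log2 scale, interval from -0.38 to 0.33) but at 2.18 in G2/WT and 2.20 in SCR/WT. Its level was 73.3 and 68.5 normalized counts in WT and between 266 and 393 in the 6 libraries of the other lines. NCAM1, a binding partner of GDNF that does not need RET, was not called in any comparison. SDC3, a heparan sulfate proteoglycan that also binds GDNF ligands, was called higher in G2/WT (1.03) and SCR/WT (0.59) and not in G2/SCR (0.44).

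The tested relatives and ligands of ALK moved the other way from ALK. LTK, the only close relative of ALK and a receptor for the same ligands, had 1577, 1464 and 1657 normalized counts in G2, 467, 504 and 555 in SCR, and 328 and 363 in WT. LTK rose on the log2 scale by 1.62 in G2/SCR (1.42 to 1.82, adjusted p = 3e-08, limma) and by 2.18 in G2/WT (1.95 to 2.40, adjusted p = 6.4e-09, limma). Per kb of exon, ALK exceeded LTK in the controls and was below it in G2. The ratio of ALK to LTK was 6.40, 5.56 and 4.98 in SCR and 6.98 and 6.97 in WT. In the G2 libraries it was 0.480, 0.537 and 0.460.

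ALKAL2, a ligand of both receptors, had 37.6, 83.2 and 67.7 normalized counts in G2, 5.1, 24.4 and 7.56 in SCR, and 0 in both WT libraries. It rose by 2.47 on the log2 scale in G2/SCR (1.06 to 3.87, adjusted p = 0.0072, limma) and was at least 6.25-fold higher in G2 than the WT floor. The other ligand, ALKAL1, had 3.22 normalized counts in 1 G2 library and 0 in the rest. Pleiotrophin (PTN) and midkine (MDK), heparin-binding growth factors that were long studied as ligands of ALK, were at far higher levels. PTN had 276677, 267454 and 264149 normalized counts in G2, between 25661 and 27098 in SCR, and 12508 and 12495 in WT. It rose on the log2 scale by 3.36 in G2/SCR and by 4.43 in G2/WT (adjusted p = 9.6e-13 and 5.9e-14, limma), and 1.07 in SCR/WT. MDK was called higher in G2/SCR (1.28) and G2/WT (0.97) and not in SCR/WT (-0.31). PTPRZ1, the phosphatase receptor that binds PTN and MDK, was listed at 0. All 4 tested genes of this list were thus called higher in both G2 comparisons, as were 11.3% of all genes tested. Their median change on the log2 scale was 2.04 for G2/SCR and 2.41 for G2/WT when ALKAL2 is set at its bound.

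Of the adaptors and regulators that act on RET and ALK, 31 of 36 genes could be tested. In G2/SCR 8 were called higher, 5 lower and 18 not at all, and in G2/WT 9 were called higher, 3 lower and 19 not at all. The medians were 0.03 and 0.26, and the called shares stand beside 26.9% and 29.9% of all genes. GRB2, which links receptors to SOS, differed by 0.00 against SCR and -0.01 against WT on the log2 scale, and the phosphatase PTPN11 -0.07 and -0.01. SHC4, an adaptor of the SHC family, rose by 1.99 against SCR and 2.75 against WT. The ubiquitin ligase NEDD4 rose by 1.57 and 1.19, the sorting receptor SORL1 by 0.86 and 1.57, and the receptor phosphatase PTPRJ by 0.91 and 1.33. DOK4, a docking protein that binds RET, had log2 fold changes of -1.41 and -2.32. RAP1GAP, which turns off the GTPase RAP1, had -1.16 and -1.64.

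Most response genes of the ERK pathway were higher in G2, in which both receptors were lower. Of the 19 genes, all tested, 14 were called higher and 1 lower in each G2 comparison, and the medians were 1.27 and 1.26. Over all genes tested, 15.1% were called higher and 11.8% lower in G2/SCR, and 17.7% and 12.2% in G2/WT. PHLDA1 rose by 4.25 against SCR and 3.22 against WT, the feedback inhibitor SPRY1 by 3.20 and 2.90, and the immediate early genes EGR1 by 2.7 and 3.27 and FOS by 2.10 and 3.00. FOSL1, another AP-1 subunit, rose by 1.27 and 3.40. The gene called lower was MYC, with log2 fold changes of -1.95 and -1.66. In SCR/WT 6 of the 19 were called higher and 2 lower, with a median of 0.07, beside 10.7% and 5.63% of all genes. RNA libraries do not measure ERK activity itself. The paper blotted ERK and phosphorylated ERK in WT and G2 cells, as controls and under differentiation with retinoic acid and brain-derived neurotrophic factor. It reports lower levels of MAPK/ERK pathway components without PRPF40B during differentiation. No such treatment is given for the cells of the libraries read here. How those blots relate to the RNA levels given here was not tested.

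**Figure D4:**
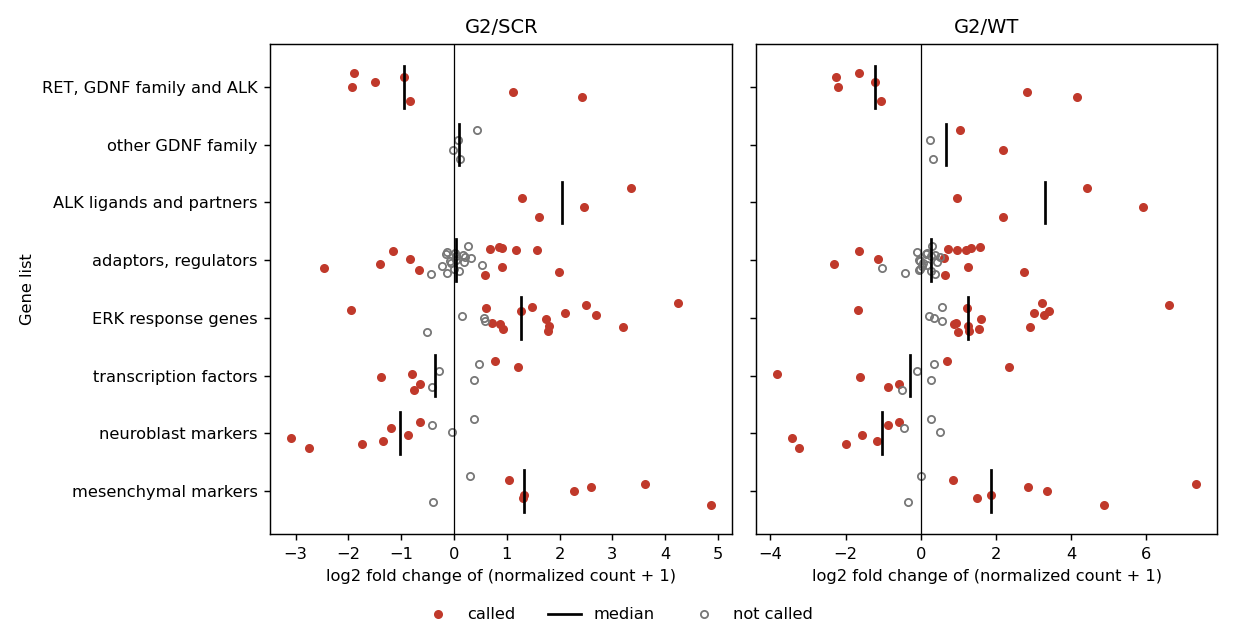
log2 fold changes of the tested genes of each list in G2/SCR (left) and G2/WT (right) on the scale of normalized count + 1; filled points were called, open points were not, and black bars are medians of the fitted values. The RET and ALK genes lie mostly to the left with the neuroblast markers, while the ALK ligands and partners, ERK response genes and mesenchymal markers lie mostly to the right.

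Among transcription factors known to act upstream of RET or ALK, 10 of 14 could be tested, and SOX10, PAX3, NKX2-1 and HOXB5 were listed at 0. In each G2 comparison 2 were called higher and 4 lower, with medians of -0.35 and -0.30. The shares of all genes were 15.1% higher and 11.8% lower in G2/SCR, and 17.7% and 12.2% in G2/WT. ISL1, a homeodomain factor of sympathetic neurons, changed by -1.39 against SCR and by -1.62 against WT on the log2 scale, with 2578, 2641 and 2602 normalized counts in G2 and at least 6718 in each control library. HAND2, a basic helix-loop-helix factor of the same lineage, had -0.64 and -0.59. The retinoic acid receptor RARB rose by 1.21 and 2.34, and MYCN by 0.77 and 0.70.

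Of the markers of cell state, most neuroblast markers were lower in G2, as RET and ALK were, while most mesenchymal markers were higher. Of 10 sympathetic neuroblast markers, 3 of them also on the list of transcription factors, 7 were called lower in each G2 comparison. Their summed level was 254176 to 255205 normalized counts in G2, 351345 to 354580 in SCR and 315783 to 326668 in WT. STMN2 held the largest part of this sum, with a mean of 165517 in G2, 170244 in SCR and 116782 in WT. Its log2 fold changes were -0.04 against SCR and 0.50 against WT, and those of GATA3 were 0.37 and 0.28, none of them called. CHGA, a protein of secretory granules, had log2 fold changes of -3.08 and -3.43, and DBH, which makes noradrenaline, -1.74 and -2.0. TH, the first enzyme of that pathway and a defining marker of the lineage, was weak in all lines, with 5.65, 0 and 0 normalized counts in G2, 26.5, 5.63 and 9.82 in SCR, and 19.9 and 13.9 in WT. Of 10 mesenchymal markers, 9 were tested and 7 were called higher in each G2 comparison, with medians of 1.33 and 1.60 when PRRX1 is set at its bound. Their summed level was 316555 to 323047 in G2, 133605 to 140820 in SCR and 102615 to 116993 in WT. COL3A1, a fibrillar collagen, rose by 3.61 and 7.33 and the intermediate filament VIM by 1.33 and 1.86. The tested markers not called were TWIST1, with -0.39 and -0.34, and PDGFRB, with 0.31 and 0. PRRX1, a defining mesenchymal factor, had 20.7, 48.2 and 22.6 normalized counts in G2 and 0 in every control library, whereas FN1 had 2.27 in 1 SCR library and 0 elsewhere. The part of these markers in the levels of RET, ALK and the co-receptors was not tested.

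Markers of Schwann cells, another neural crest lineage, were read as well. Of 8 markers, 3 were above the filter, and the defining factor SOX10 was listed at 0 in all libraries. Summed levels were 170 to 267 normalized counts in G2, 387 to 599 in SCR and 431 to 464 in WT, so they were lower where GFRA1 was higher. S100B, which made up most of that sum, changed by -1.58 against SCR and by -1.41 against WT on the log2 scale.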

How the data were processed

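Polyadenylated RNA of SH-SY5Y cells was sequenced in paired ends from 3 G2, 3 SCR and 2 WT libraries made with a stranded kit. Per the study's methods, STAR aligned the reads to hg38, featureCounts (Subread 1.5.0) counted them on FAST DB genes and DESeq2 normalized the counts; the strand setting and the treatment of reads with several matches are not given in the sources used here. The signal that the authors deposited is this normalized count for every gene in every library, with no scaling to length. Values of 7 libraries were whole multiples of a step per library, so counts before normalization could be recovered; the step of WT replicate 2 is too near 1 to check, and count tests were therefore run for G2/SCR only.

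The table holds normalized values, so limma 3.58.1 in R 4.3.3 (lmFit, eBayes with a trend) was run on log2(normalized count + 1), which understates changes of weak genes, for 18947 genes with a mean of at least 10, in 1 fit over the 3 lines. Genes were called when the fold reached 1.5 and the unadjusted p did not exceed 0.05; adjusted p-values (Benjamini-Hochberg, over all genes tested) stand beside them. Tests were tried on simulated data before use. The alternatives were other pseudocounts, filters and scalings, blocks for the replicate or library number, each library left out in turn, edgeR 4.0.16 and DESeq2 1.42.0. An edgeR run on counts divided by 3 and a scaling without ribosomal RNA were chosen after seeing the data.

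The genes, the lists and the tests were chosen with earlier results of these data known. Besides the 8 genes, PRPF40B and all genes of the 2 family lists, up to 6 genes of each other list were named, those with the largest mean change among genes called the same way in both G2 comparisons with a mean of at least 100. Genes named outside this rule (GRB2, PTPN11, TH, STMN2, GATA3, PRRX1, FN1, TWIST1, PDGFRB, SOX10, PAX3, NKX2-1, HOXB5) and the ratios between receptors were chosen after their values were seen. Single values of some list genes are not reported here. Exon lengths come from GENCODE 44 and upstream sequences from RefSeq.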

Additional observations from a re-analysis of the deposited data

How the results depend on the processing

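Of the 21 fold changes of the 7 tested genes over the 3 comparisons, 19 kept their side of the call rule in every alternative run, and no called value changed sign. All calls in G2/SCR held under the 23 alternatives that included the gene. The exceptions were ARTN in G2/WT and GFRA1 in SCR/WT. The ARTN call was lost with libraries scaled to the same total (-1.03), a library number block (-0.80), only the 2 lines compared or no trend (-1.22 each), and without G2 replicate 2 (-0.71) or WT replicate 2 (-1.06). GFRA1 was called in SCR/WT with a pseudocount of 0.5 (2.19), the same total (1.88), the same total without ribosomal RNA (1.84), a replicate block (2.06), and without SCR replicate 3 (2.34) or WT replicate 2 (2.90). With the replicate number as a block, 7 of the genes were called in G2/SCR, 7 in G2/WT and 3 in SCR/WT, and 5059, 5644 and 3057 genes over all; the deviations of same-numbered libraries correlated between -0.17 and 0.15, so the numbers were not taken as pairs. Over all genes, a filter on a mean of at least 100 left 3088 calls in place of 5088 in G2/SCR, 3633 in place of 5657 in G2/WT and 1723 in place of 3097 in SCR/WT, with fewer genes tested. When single libraries were left out, the calls ran from 4790 to 5191, from 5070 to 6145 and from 2851 to 3543, and the tested genes called were 7, 6 to 7 and 2 to 3. Scaling to the same total moved the median of all genes to as much as 0.28 (SCR/WT) and the share of calls that are higher to 75.7% in G2/WT (59.3% before) and 90.6% in SCR/WT (65.6% before), or to 70.6% and 87.1% without ribosomal RNA. In G2/SCR that share went from 56.2% to 47.5% with either scaling. With the same total, 2 values that were not called turned sign in SCR/WT, RET from -0.24 to 0.04 and GFRA3 from -0.27 to 0.01, while ALK went from 0.24 to 0.52. The causes of these changes were not tested. Low counts limit GFRA1, ARTN and ALKAL2. The outlier test needs 4 libraries a line, so no library was tested as an outlier, and count tests were not run against WT.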

Other observations

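For the 5 of these genes whose mean was 100 normalized counts or higher, the closest patterns elsewhere were read from the Pearson correlation of log2 values over the 8 libraries, among 12419 genes. The points share their library and the 3 lines, so these are descriptions and carry no p. RET was followed most closely by SEZ6L (r = 0.9969), KCNC1 (0.9968) and SRC (0.9961). SRC, a tyrosine kinase that RET engages, had 2090 to 2156 normalized counts in G2, 3442 to 3952 in SCR, and 4561 and 4870 in WT. ALK was followed by EFNB2 (0.9989), a membrane ephrin with 3350 to 3609 normalized counts in G2 and at least 7208 in each control library, and by SNAP91 (0.9983) and INA (0.9980). GFRA3 was followed by NRXN2 (0.9983), KIF1A (0.9981) and IGLON5 (0.9980), and NRTN by EVL (0.9927), MMAB (0.9902) and ATAD3C (0.9895). GFRA2, which rose over the lines, was followed by ATP8B2 (0.9986), LRP1B (0.9975) and PCDH17 (0.9971). LRP1B went from 8.69 and 9.93 normalized counts in WT through 110 to 128 in SCR to 520 to 554 in G2.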
